A study of Mus musculus with 15 samples.

Results

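The genes described here are 36 cell cycle and proliferation genes, picked by name, among the 24831 gene names of a table of hypothalamic expression in mice. They fall into 11 genes of DNA replication and S phase entry, 23 genes of mitosis and 2 D cyclins. Hypothalami of outbred CD-1 mice were taken at postnatal day 15 for RNA sequencing, in a study whose title concerns thyroid hormone effects carried to the F2 generation. Its 15 samples form 5 groups of 3, labelled Control, PGM, PGF, HM and HF. All 5 groups share the stock, age and tissue. The labels give no treatment, sex or meaning for the codes, which are used as they stand. Each value is the authors' mean over a group in RPKM, a read count divided by transcript length and by the library's mapped reads, and a gene's value is the median over its transcripts. No value per sample was used, so no difference below has an SD, a test or a replicate check, a single sample may carry a mean, and the read depth is unknown.

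Cells that divide copy their DNA in S phase and separate it in mitosis. The MCM helicase opens the double helix at replication origins, ribonucleotide reductase and thymidylate synthase supply nucleotides, and the sliding clamp PCNA holds the polymerases on the template. Genes of mitosis are switched on later, in G2, and their transcripts are low in cells that have left the cycle. D cyclins act earliest, in G1, and are also expressed in some cells that do not divide. In the brain after birth most neurons no longer divide, while oligodendrocyte precursors and vessel, microglial and meningeal cells still can. In bulk tissue, fewer cells of a type and less RNA per cell cannot be told apart.

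Many mitosis genes are repressed outside G2 through the CHR element near the transcription start, often beside CCAAT boxes, and many replication genes carry E2F sites. Promoter sequences from RefSeq (GRCm38.p6) were at hand for 29 of the 36 genes, 10 of replication and 19 of mitosis. The 250 bases before each start were searched on both strands for TTTGAA (CHR), CCAAT, and 4 forms of the E2F site, which are TTCCCGC and also TTCGCGC as well as TTGCCGC and then TTGGCGC. The letters TTTGAA were found in 8 of 19 mitosis genes (42.1%) and 1 of 10 replication genes, against 18.3% of 27025 genes with such a window. E2F forms were found in 5 of 10 replication genes (50%) and 3 of 19 mitosis genes (15.8%), against 9.01% of all. CCAAT was found in 17 of 19 mitosis genes and 8 of 10 replication genes, against 37.5% of all. E2F matches overlap one another in Mcm6. A match of letters is a description and not a known binding site. The sequences shown belong to the 3 mitosis genes with the largest difference between HM and Control (Mki67, Top2a and Cdk1), to the mitosis gene that was not lower in HM (Ccnb2) and to the replication gene with the largest such difference (Mcm6). Capitals mark the matches, and all 5 genes lie on the minus strand, read 5′ to 3′ towards the RefSeq start. For Mcm6 the bases after the window were not found in a GENCODE transcript of the gene, so its start is uncertain; across all windows they were found for 26 of 31.
Mki67, chr7:135716380-135716629: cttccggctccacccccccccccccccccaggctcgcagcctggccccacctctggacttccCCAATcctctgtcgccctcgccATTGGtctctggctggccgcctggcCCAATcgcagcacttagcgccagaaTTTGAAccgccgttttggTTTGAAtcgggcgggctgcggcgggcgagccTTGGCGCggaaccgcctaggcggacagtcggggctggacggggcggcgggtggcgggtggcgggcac
Top2a, chr11:99024190-99024439: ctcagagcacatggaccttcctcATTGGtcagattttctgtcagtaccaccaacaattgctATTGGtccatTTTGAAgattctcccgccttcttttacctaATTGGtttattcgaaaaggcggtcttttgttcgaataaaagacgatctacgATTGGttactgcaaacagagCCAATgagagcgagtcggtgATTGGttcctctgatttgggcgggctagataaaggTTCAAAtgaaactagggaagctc
Cdk1, chr10:69352913-69353162: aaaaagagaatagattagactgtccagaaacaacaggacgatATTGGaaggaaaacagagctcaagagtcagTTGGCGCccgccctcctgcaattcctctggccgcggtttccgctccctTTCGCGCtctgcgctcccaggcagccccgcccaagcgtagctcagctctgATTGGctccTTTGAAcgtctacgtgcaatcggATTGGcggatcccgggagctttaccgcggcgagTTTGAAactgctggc
Ccnb2, chr9:70421555-70421804: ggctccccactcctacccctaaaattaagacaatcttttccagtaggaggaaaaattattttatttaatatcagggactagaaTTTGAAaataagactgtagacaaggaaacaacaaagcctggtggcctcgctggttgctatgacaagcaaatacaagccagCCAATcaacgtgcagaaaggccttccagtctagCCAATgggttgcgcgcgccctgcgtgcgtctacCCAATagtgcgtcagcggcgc
Mcm6, chr1:128359706-128359955: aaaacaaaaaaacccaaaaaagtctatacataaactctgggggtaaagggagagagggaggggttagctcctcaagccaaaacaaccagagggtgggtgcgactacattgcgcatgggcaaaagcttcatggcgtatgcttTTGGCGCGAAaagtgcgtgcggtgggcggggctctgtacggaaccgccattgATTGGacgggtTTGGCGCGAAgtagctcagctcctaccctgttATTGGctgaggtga
Mki67, Top2a and Cdk1 each hold 2 TTTGAA matches, Ccnb2 holds 1 and Mcm6 holds none but 4 E2F matches. In Cdk1 the nearest TTTGAA begins 15 bases before the start, in Top2a 23, in Mki67 98 and in Ccnb2 167.

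The values ranged widely between the genes, and the mitosis genes stood lowest. Comparisons counted the 31 genes whose 5 group values averaged 1 RPKM or more, 11 of replication, 18 of mitosis and both D cyclins, out of 17481 such genes in the table. The mean level of the 18 mitosis genes ran from 1.16 to 6.50 RPKM with a median of 2.44, that of the replication genes from 2.39 to 61.4 with a median of 9.66, and the D cyclins were at 11.3 and 21.7 RPKM. The median over all kept genes was 18.8 RPKM. The other 5 genes, Aurkb, Bub1, Bub1b, Cenpe and Kif23, lay under 1 RPKM and are described apart. Added up, the 18 mitosis genes came to 61 RPKM in Control, 57.3 in PGM and 56.4 in PGF, 50.2 in HM and 59.8 in HF. The replication genes came to 189, 181, 186, 170.3 and 191 RPKM in that order, so both sums were lowest in HM.

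**Figure D1:**
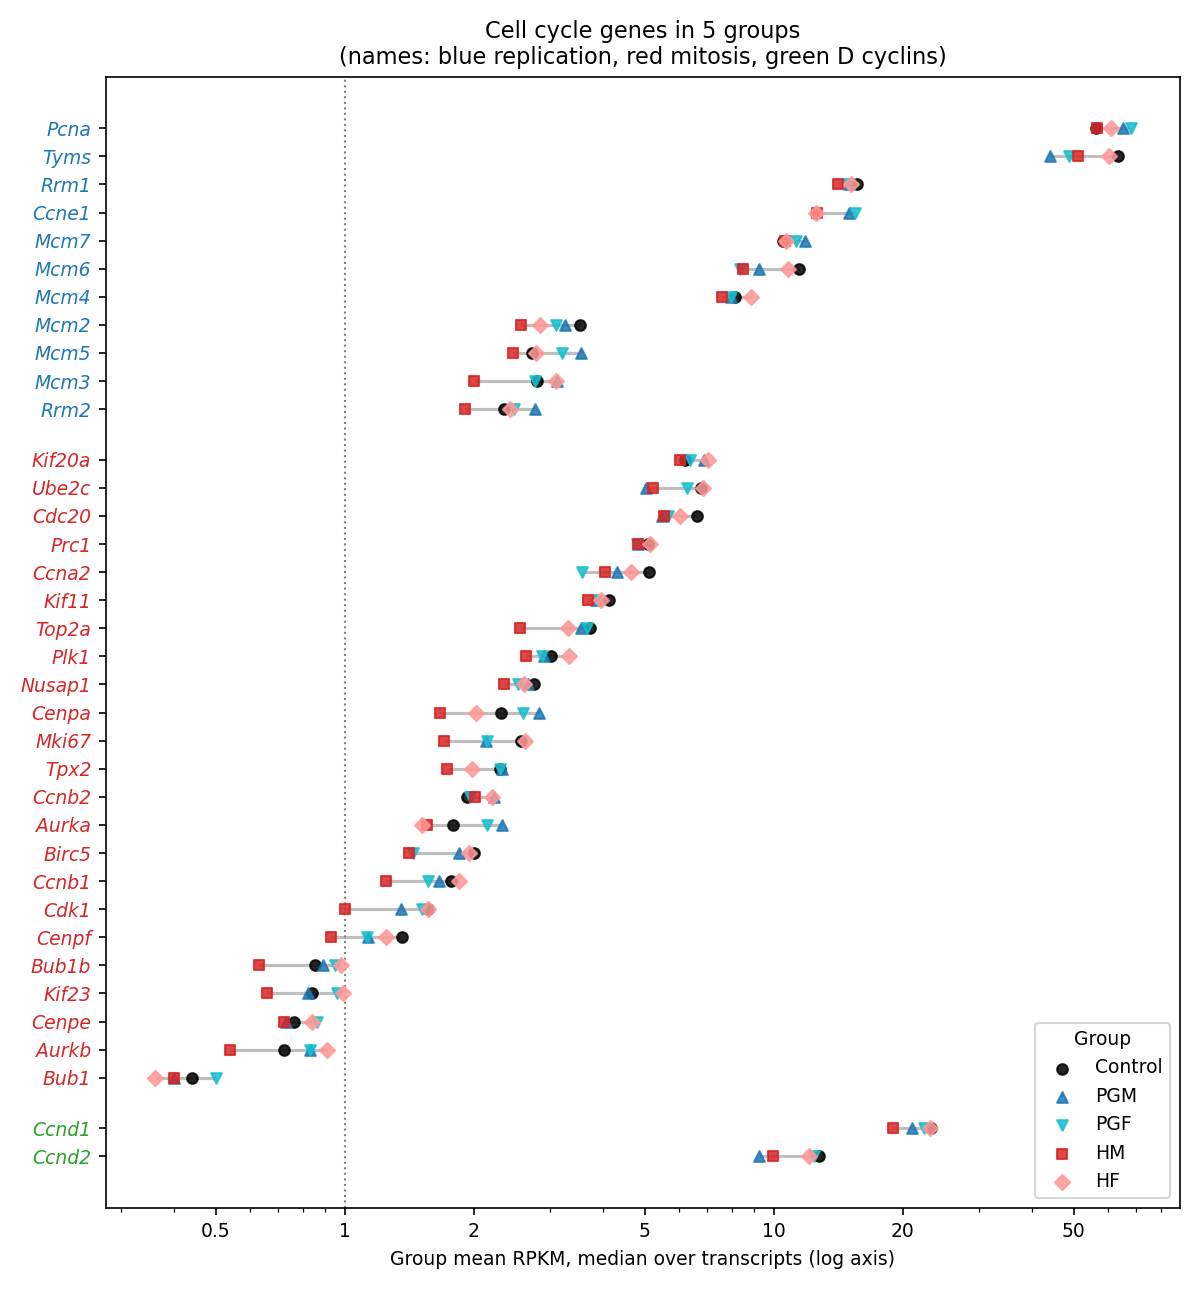
Group mean RPKM (log axis, median over transcripts) of the 36 genes, 1 row per gene and 1 symbol per group, with grey lines from the lowest to the highest group; the dotted line marks 1 RPKM. HM (red squares) is the lowest of the 5 groups for 23 of the 36 genes and the highest for 0.

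HM was the lowest of the 5 groups for 19 of the 31 genes, 12 of 18 mitosis genes, 6 of 11 replication genes and the D cyclin Ccnd1. Over all kept genes HM was lowest for 22.2%, and for 23.1% of the genes between 1 and 10 RPKM, where 24 of the 31 genes lie and HM was lowest for 17 of them. HM was the highest group for 0 of the 31, against 7.76% of all genes. Control was the highest for 14 of the 31 (45.2%, against 25.3% of all genes) and the lowest for 4 (12.9%, against 23.5%). HF was the highest for 8, against 24.9%, and PGM for 8, against 29.2%. The median spread of the 31 genes from their lowest to their highest group was 0.39 on the log2(RPKM + 0.5) scale, against 0.23 over all kept genes, whose levels are mostly higher.

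**Figure D2:**
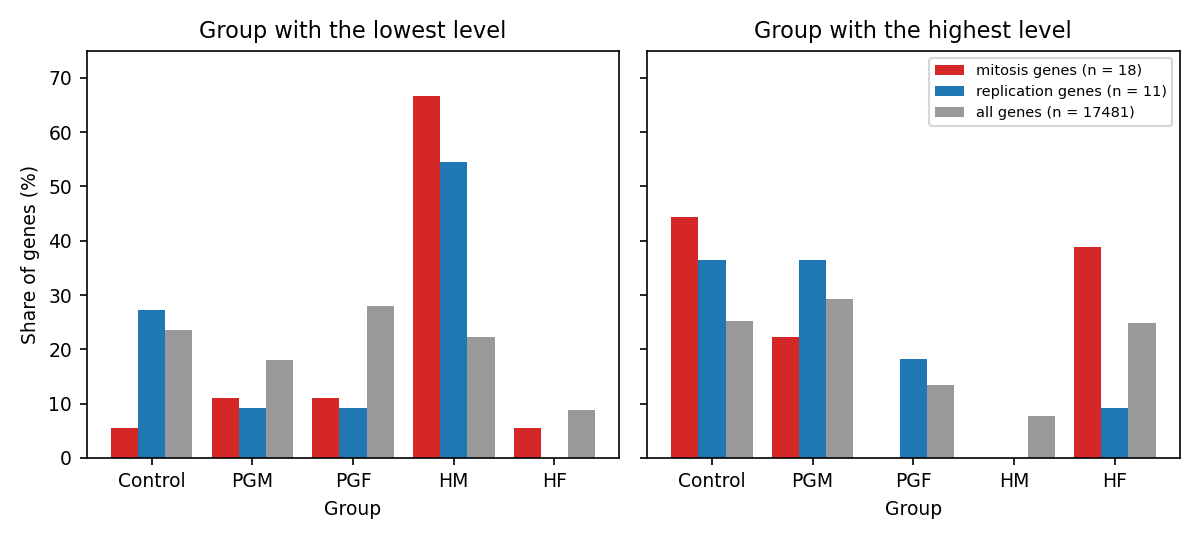
Share of genes (%) for which each group has the lowest (left) or highest (right) mean RPKM, for 18 mitosis genes, 11 replication genes and all 17481 kept genes. HM is lowest for 66.7% of the mitosis genes, 54.5% of the replication genes and 22.2% of all genes.

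Among the mitosis genes, HM was lower than Control in 17 of 18, with a median difference of -0.31 in log2(mean RPKM + 0.5), where the median over all kept genes was -0.03 and 59.9% of them were lower. With 0.5 RPKM added to each mean, 0 of the 31 genes differed by 1.5-fold or more, against 1.54% of all kept genes in either direction. As plain ratios of the means, Mki67 and Cdk1 passed 1.5-fold, 2 of 31 against 2.46% of all kept genes. A smaller difference, of 0.32 or more on the same log2 scale (at least 20% lower once 0.5 RPKM is added), was also counted. This leaves out Ccna2, whose plain ratio of HM to Control was 0.793. By it 9 mitosis genes, 3 replication genes and 1 D cyclin were lower in HM and 0 were higher, 13 of 31 in all, against 6.09% of all kept genes lower. Among genes between 1 and 10 RPKM the share lower by 0.32 or more was 11.2%, and among the cell cycle genes in that range it was 12 of 24. The names of the 9 are Mki67, Top2a, Cdk1, Ccnb1, Birc5, Cenpa, Cenpf, Ube2c and Tpx2, and those of the other 4 are Mcm2, Mcm3, Mcm6 and Ccnd2.

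Mki67, whose protein coats mitotic chromosomes and is the standard marker of dividing cells (chromosome 7, 135689784 to 135716361 in GRCm38), was at 2.58 RPKM in Control, 2.13 in PGM and 2.14 in PGF, 1.7 in HM and 2.63 in HF. Control and HF were nearly level at the top, both P groups lay between, and HM was at 0.659 of Control, a difference of -0.49. Cdk1, the kinase that drives entry into mitosis (chromosome 10, 69335146 to 69352938), was at 1.56 RPKM in Control, 1.35 in PGM and 1.51 in PGF, 1 in HM and 1.56 in HF, again with HM alone well below the rest (-0.46). Top2a, which untangles sister DNA (chromosome 11, 98992943 to 99024189), was at 3.72, 3.55, 3.67, 2.56 and 3.31 RPKM in the same order. For Top2a the groups other than HM lay no farther from Control than HF, at -0.15, and HM differed from Control by -0.46.

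The cyclins that pair with CDK1 did not follow a single pattern. Ccnb1 was at 1.77 RPKM in Control, 1.66 in PGM, 1.56 in PGF and 1.85 in HF, and in HM at 0.708 of its Control level. Ccnb2 was at 1.93, 2.23, 1.96, 2.01 and 2.20 RPKM, and it was the mitosis gene that was not lower in HM than in Control (0.05). Ccna2, which acts in S phase and G2, was at 5.11 RPKM in Control and lowest in PGF at 3.57, with 4.30 in PGM, 4.05 in HM and 4.64 in HF. The HM difference was thus -0.37 for Ccnb1, -0.30 for Ccna2 and 0.05 for Ccnb2, genes that differ in both size and sign.

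Of the kinases and the proteins they work with, Aurka, a kinase of the spindle poles, was at 1.79 RPKM in Control, 2.32 in PGM and 2.14 in PGF, 1.55 in HM and 1.51 in HF. Its values were high in both P groups and low in both H groups. Its activator Tpx2 was at 2.30, 2.33, 2.30, 1.73 and 1.98 RPKM in that order, level in Control and the P groups. Plk1, a kinase needed throughout mitosis, ranged from 2.65 RPKM in HM to 3.33 in HF, and Birc5, the survivin subunit of the chromosomal passenger complex, from 1.41 in HM and 1.44 in PGF to 2 in Control.

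Genes of centromeres and of exit from mitosis were also lowest in HM or near it. Cenpa, the histone variant that marks centromeres, was at 2.31 RPKM in Control, 2.83 in PGM and 2.60 in PGF, 1.67 in HM and 2.02 in HF, the largest spread of the 36 genes at 0.62 on the log2 scale. The kinetochore gene Cenpf was at 1.36 RPKM in Control and 0.93 in HM. Ube2c, a conjugating enzyme that works with the anaphase-promoting complex, was at 6.75 RPKM in Control, 5.03 in PGM and 6.27 in PGF, 5.23 in HM and 6.84 in HF, low in PGM and HM alike. Cdc20, the activator of that complex, was highest in Control at 6.64 RPKM and between 5.48 and 6.04 in the other groups.

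Differences were small for 4 genes of the spindle and of cytokinesis. Prc1, a bundler of spindle microtubules, lay between 4.80 and 5.14 RPKM in all 5 groups, a spread of 0.09, and Kif11, the motor that separates spindle poles, between 3.68 in HM and 4.12 in Control. Nusap1, a spindle protein, lay between 2.36 RPKM in HM and 2.76 in Control, and Kif20a, a motor of cytokinesis, between 6.04 in HM and 7.01 in HF. These 4 genes differed from Control in HM by -0.07, -0.14, -0.19 and -0.04. Kif20a shares 29.3% of its exon bases with Cdc23 on the other strand, at 36.6 to 39.2 RPKM, and strand handling is not given, so its level is uncertain. In all, 11 of the 36 genes share exon bases with another gene, among them Ccna2, with 12.5% shared with Exosc9 on the other strand, at 7.38 RPKM in PGF and 9.96 in Control, and Ube2c, with 22.8% shared with Tnnc2, at 0.07 to 0.17 RPKM.

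The 5 genes under 1 RPKM were lower in HM than in Control in 5 of 5, by differences of -0.05 to -0.26 on the log2 scale. Aurkb, the kinase of the passenger complex, was at 0.72 RPKM in Control, 0.83 in PGM and in PGF, 0.54 in HM and 0.91 in HF. The checkpoint gene Bub1b was at 0.85 and 0.63 RPKM in Control and HM, the cytokinesis motor gene Kif23 at 0.84 and 0.66, the kinetochore motor gene Cenpe at 0.76 and 0.72 and the checkpoint kinase gene Bub1 at 0.44 and 0.40. Against Control, HF was lower in 1 of these 5, PGF in 0 and PGM in 3. The share over other genes under 1 RPKM was not counted, so these counts stand without a background and add no weight to those above.

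**Figure D3:**
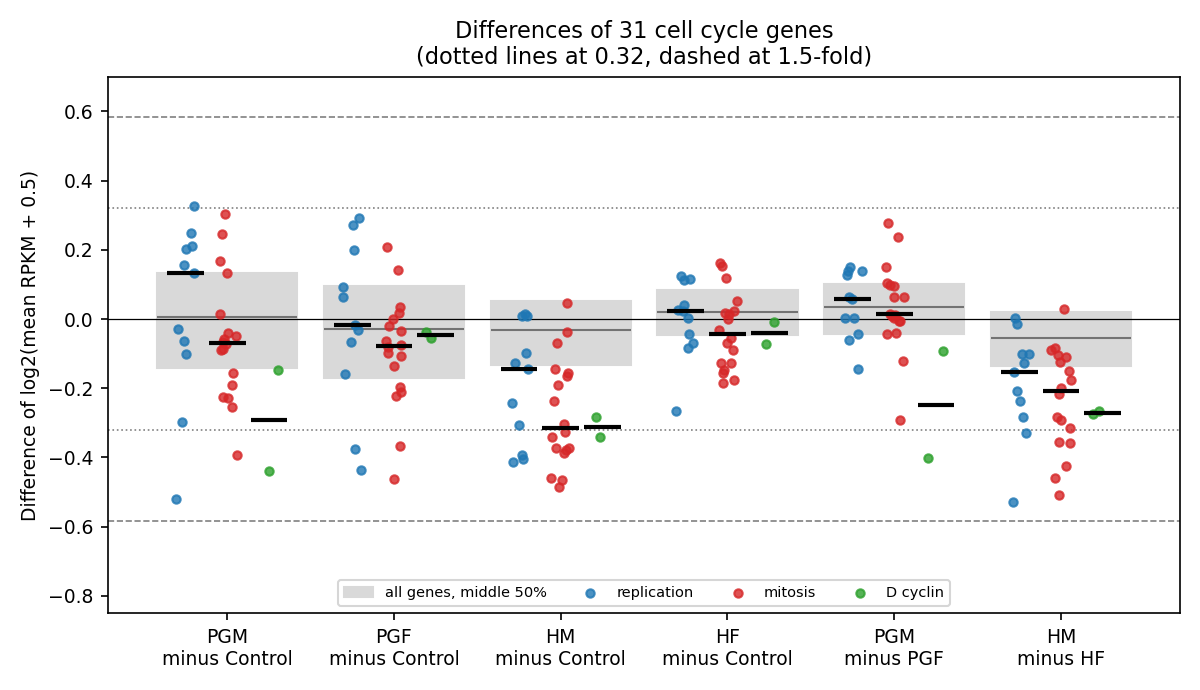
Differences of log2(mean RPKM + 0.5) in 6 comparisons for the 31 genes compared (1 point per gene, black bars at the median of each set), over grey boxes for the middle 50% of all 17481 kept genes with their median; dotted lines lie at 0.32 and dashed lines at 1.5-fold. In HM minus Control the mitosis genes have a median of -0.31 and no point in any comparison passes 1.5-fold on this scale, which adds 0.5 RPKM.

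Replication genes were lower in HM than in Control in 8 of 11, against 59.9% of all kept genes, so this count is not far from the background. Their median was -0.14, beside -0.03 over all kept genes. The MCM genes, subunits of a single helicase, did not share a single order of groups. Mcm6 (chromosome 1, 128331590 to 128359664) was at 11.5 RPKM in Control, 9.23 in PGM and 8.34 in PGF, 8.49 in HM and 10.8 in HF, so that Control and HF were high and the other groups low. Mcm3 was at 2.81, 3.13, 2.77, 2 and 3.11 RPKM in that order, with HM alone low, and Mcm2 ran from 3.53 in Control to 2.57 in HM with HF at 2.85. Mcm5 was highest in PGM at 3.55 RPKM, with 3.21 in PGF and 2.73 in Control. Mcm4 lay between 7.57 and 8.83 RPKM and Mcm7 between 10.5 and 11.8, and the HM difference ran from -0.41 for Mcm6 through -0.40 for Mcm3, -0.39 for Mcm2, -0.13 for Mcm5 and -0.10 for Mcm4 to 0.01 for Mcm7.

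Pcna (chromosome 2, 132249162 to 132253314), which also serves DNA repair, was at 56.2 RPKM in Control, 65.2 in PGM and 68.0 in PGF, 56.8 in HM and 61.0 in HF. Ccne1, the cyclin of S phase entry, had the same shape at 12.5, 15.0, 15.4, 12.6 and 12.6 RPKM. Both were higher in the P groups than in the other 3, and their difference between HM and Control was 0.02 and 0.01. Tyms, thymidylate synthase (chromosome 5, 30058202 to 30073617), was instead lower in the P groups and HM, with 63.5 RPKM in Control, 44.1 in PGM and 48.8 in PGF, 51.2 in HM and 60.5 in HF. Its level stood far above that of the ribonucleotide reductase genes Rrm1, at 14.1 to 15.6 RPKM, and Rrm2, at 1.91 in HM to 2.78 in PGM. A copy named Tyms-ps was at 9.85 RPKM in Control, 6.88 in PGM and 8.02 in PGF, 8.55 in HM and 9.43 in HF, the same order of groups, and how reads shared by the copies were counted is not given, so the Tyms values are uncertain.

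Both D cyclins, which bind CDK4 and CDK6 in G1, were highest in Control. Ccnd1 (chromosome 7, 144929931 to 144939925) was at 23.2 RPKM in Control, 20.9 in PGM and 22.4 in PGF, 19.0 in HM and 23.1 in HF. Ccnd2 (chromosome 6, 127125162 to 127152193) was at 12.7, 9.26, 12.4, 9.94 and 12.1 RPKM. Ccnd2 was thus low in PGM and HM and level in the other 3 groups, while Ccnd1 was lowest in HM. Ccnd1 shares 23.4% of its exon bases with a gene on the other strand. The 2 transcripts of Ccnd2 went apart in PGF, where 1 was at 14.4 RPKM against 16 in Control and the other at 10.4 against 9.43, but both were lower in PGM and in HM.

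Transcripts were also compared one by one. Of the 31 genes, 17 have more than 1 transcript in the table. Every transcript was lower in HM than in Control in 17 of the 17, against 50.4% of all kept genes with several transcripts. The 4 of the 31 genes that were not lower in HM, Mcm7, Pcna, Ccne1 and Ccnb2, have 1 transcript each and are not among the 17. In PGM this held for 10, against 40.8%, in PGF for 10, against 47.6%, and in HF for 7, against 30.1%. Transcripts of a gene share reads and are not independent. Of the 61 transcripts of the 31 genes, 57 were lower in HM, against 59.5% of all transcripts of kept genes. The count was 37 in PGM, against 49.4%, 40 in PGF, against 56.2%, and 33 in HF, against 41.4%.

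HM set against HF gave the same direction without the Control samples, though it shares the HM samples with the comparison above. Mitosis genes were lower in HM in 17 of 18 with a median of -0.21, replication genes in 10 of 11 with -0.15 and both D cyclins with a median of -0.27. Over all kept genes 68.6% were lower in HM than in HF and the median was -0.05. By 0.32 or more 7 of the 31 were lower, against 5.59% of all genes and 12.6% of genes between 1 and 10 RPKM, where 7 of 24 lay. The 7 were Mki67 (-0.51), Cdk1 (-0.46), Ccnb1 (-0.43), Birc5 and Ube2c among the mitosis genes, and Mcm3 (-0.53) and Mcm6 (-0.33). At 1.5-fold with 0.5 RPKM added there were 0 of 31, against 1.68% of all genes. As plain ratios Mki67 (0.646 of HF), Cdk1 (0.641) and Mcm3 (0.643) passed it, 3 of 31 against 2.65%.

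HF differed little from Control for these genes. The median was 0.02 for replication genes and -0.04 for mitosis genes and D cyclins, beside 0.02 over all genes. Of the 31 genes 16 were lower, against 41.1% of all genes, and 0 were lower by 0.32 or more (1.15% of all genes) or past 1.5-fold (0.829%). Mcm2 was the farthest apart, at 2.85 against 3.53 RPKM.

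In PGM against Control, replication genes were split, 6 higher and 5 lower with a median of 0.13, and 13 of 18 mitosis genes were lower (median -0.07), over an all-gene median of 0.005 and 48.8% lower. Without the genes under 3 RPKM the replication median was -0.05, so its sign rests on the genes between 1 and 3 RPKM. By 0.32 or more, Tyms (-0.52), Ccnd2 (-0.44) and Ube2c (-0.39) were lower, 3 of 31 against 9.72% of all genes, and Mcm5 (0.33) was higher, 1 of 31 against 7.38%. Neither count is above the share of all genes. At 1.5-fold there were 0 of 31, against 4.62%.

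In PGF against Control the replication median was -0.02 and the mitosis median -0.08, with an all-gene median of -0.03, and 21 of the 31 genes were lower, against 55.6% of all. By 0.32 or more, Ccna2 (-0.46), Mcm6 (-0.44), Tyms (-0.38) and Birc5 (-0.37) were lower, 4 of 31 against 10.1%, and 0 were higher, against 5.96%. At 1.5-fold there were 0 of 31, against 4.04%. PGM set directly against PGF gave medians of 0.06 for replication and 0.01 for mitosis genes, with 11 of 31 lower, against 37.4% of all genes. Ccnd2 (-0.40) was the 1 gene lower in PGM by 0.32 or more, against 2.37% of all genes, and 0 passed 1.5-fold, against 0.99%.

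Other genes of the cell cycle were read beside the 36. From 7 further lists of 139 genes, 105 had at least 1 RPKM, and 60 of them were lower in HM than in Control with a median of -0.02, where 59.9% of all kept genes were lower. By 0.32 or more, 9 of the 105 were lower, against 6.09% of all genes, and 1 was higher. HM was the lowest group for 36 of the 105, against 22.2% of all genes. The list of spindle, condensin and cytokinesis genes was lower in 11 of 14 with a median of -0.12, and other cyclins and their kinases in 9 of 13 with -0.12. The lists of origin licensing (-0.004), of the replication fork (-0.02), of kinetochore and checkpoint genes (0.01) and of E2F, MYB and FOXM1 factors (0.02) lay close to the all-gene median. The kinetochore median rests on 14 of 25 listed genes and that of the factors on 12 of 16. Mybl2, Foxm1, E2f8 and E2f7 averaged under 1 RPKM and are left out of the latter. In HM they were at 0.25, 0.74, 0.76 and 0.24 RPKM, where Control had 0.51, 1.18, 0.98 and 0.21.

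Named by size, the kinetochore genes Spc25 and Cenpm were at 0.73 and 1.34 RPKM in HM, where Control had 1.55 and 2.12, and the mitotic kinase gene Pbk at 1.33 against 1.95. Cdk2, the kinase of S phase, was at 2.88 RPKM in HM and between 3.56 and 3.78 in the other groups. Uhrf1, which maintains DNA methylation after replication, was at 1.54 RPKM in HM and 1.58 in HF against 2.12 in Control. Anln, an actin binder of the cleavage furrow that is also abundant in myelinating oligodendrocytes, went the other way, at 10.1 RPKM in PGF, 8.09 in PGM and 6.99 in HM against 4.72 in Control and 5.08 in HF. Myelin markers were higher in the same 3 groups, with medians of 1.06, 0.68 and 0.50 over 10 genes, and slightly so in HF, with a median of 0.09. Whether myelinating cells account for the Anln values was not tested. E2f1 was at 2.40 RPKM in PGM and 1.87 in PGF against 1.07 in Control.

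Other genes were taken by the same rule. In PGM the licensing genes Gmnn, Gins3 and Cdc7 were at 6.2, 3.43 and 8.88 RPKM, where Control had 4.69, 2.53 and 6.83, and Cdc7 was also at 8.62 in HF and 8.03 in HM. Dut, which keeps uracil out of DNA, was at 22.3 RPKM in PGM and 17.4 in Control. Mycn was at 7.86 RPKM in PGM against 5.45 in Control. Tk1, the salvage kinase for thymidine, was at 1.14 RPKM in PGF and 1.27 in PGM against 1.72, and Ccnf at 2.04 in PGF against 1.30. Pttg1, the securin gene, differed between the P groups, at 4.91 RPKM in PGM and 2.57 in PGF against 3.59 in Control.

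The third D cyclin gene, Ccnd3, was at 22.0 RPKM in Control, 16.6 in PGM and 19.6 in PGF, 18.7 in HM and 20.8 in HF, so Control was the highest for it too. E2f2 was at 1.90 to 1.96 RPKM in PGM, PGF and HM against 2.55 in Control and 2.39 in HF. Of the inhibitors of division, Gadd45g was at 40.5 RPKM in HF against 28.9 in Control, Btg2 at 10.2 in PGM and 16.4 in PGF against 13.3, and Rbl1 at 2.14 in PGM against 2.99. The inhibitors as a list had a median of -0.07 in HM and -0.10 in PGM. In HM 9 of the 14 measured were lower than in Control, against 59.9% of all kept genes, and 5 were higher. Among the latter, and outside the naming rule, Cdkn1a was at 14.0 RPKM in HM and 11.2 in Control. Kifc1, a spindle motor gene, was at 1.38 RPKM in HF against 0.93 in Control.

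**Figure D4:**
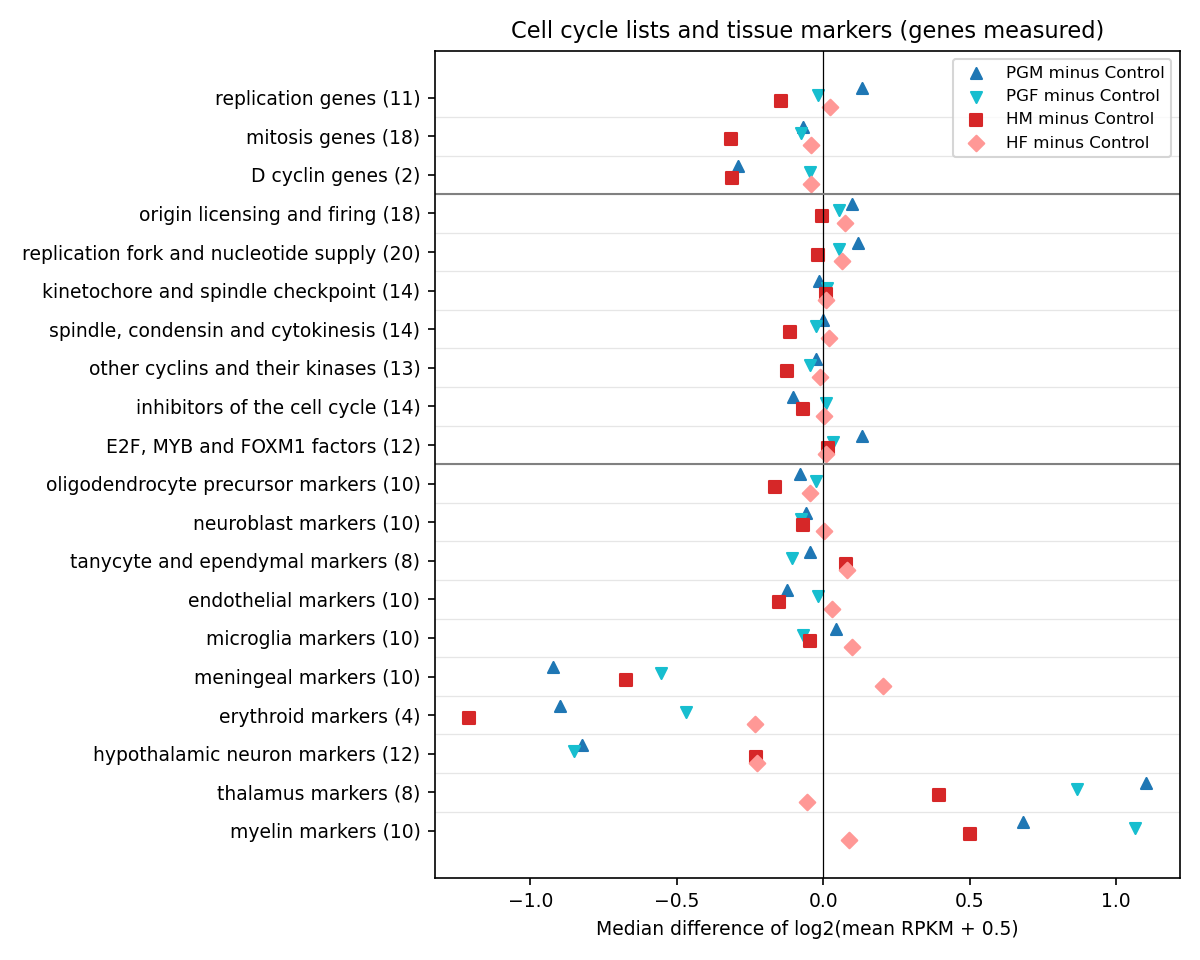
Median difference from Control in log2(mean RPKM + 0.5) of each gene list except the pituitary list, 1 symbol per group, with the number of genes measured in brackets. Grey lines separate the genes described here, further cell cycle lists and tissue markers. In HM the mitosis genes are at -0.31 beside -0.17 for oligodendrocyte precursors, -0.15 for endothelium, -0.67 for meninges and -1.21 for erythroid genes.

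Markers of other cells differed between the same groups. Of all kept genes, 59.9% were lower in HM than in Control. Erythroid genes were lower in HM than in Control in 4 of 4 measured of 9 listed, with a summed level of 2327 RPKM against 4998 in Control, 2822 in PGM, 3750 in PGF and 4384 in HF, and HM was the lowest group for all 4. Meningeal markers were lower in HM in 10 of 10, with sums of 172 RPKM in HM, 137 in PGM and 187 in PGF against 270 in Control and 302 in HF. The meningeal sum was lowest in PGM and the erythroid sum was lowest in HM. The mitosis median was -0.07 in PGM and -0.31 in HM. Whether either list accounts for part of the differences in cell cycle genes was not tested.

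Endothelial markers were lower in HM than in Control in 9 of 10, against 59.9% of all kept genes, with a median of -0.15. In PGM they were lower in 9 of 10, against 48.8%, with a median of -0.12. Their sums were 273 RPKM in HM, 278 in PGM, 289 in Control, 300 in PGF and 313 in HF. Oligodendrocyte precursor markers were lower in HM in 7 of 10, a share near the 59.9% of all kept genes, with a median of -0.17. Their summed level was 878 RPKM in HM, the lowest of the 5, and 920 to 970 in the others. Pdgfra, the growth factor receptor of these precursors, was at 65.6 RPKM in Control and 64.7 in HF against 54.0 in PGM, 55.6 in PGF and 55.0 in HM. The list as a whole did not share this order. In PGM 5 of the 10 markers were lower than in Control and 5 higher, and in PGF 6 were lower and 4 higher. Among those higher, Olig1 was at 252 RPKM in Control, 282 in PGM and 293 in PGF. Neuroblast markers had a median of -0.07 in HM, microglia markers -0.05 and tanycyte and ependymal markers 0.08. No marker of these lists was at 0 in any group, and their part in the cell cycle differences was not tested.

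Markers of neighbouring brain regions and a Y-linked gene also differed between the group means. Hypothalamic neuron markers were lower by their median in all 4 groups, at -0.82 in PGM, -0.85 in PGF and -0.23 in both HM and HF. The genes lower were 11 of 12 in PGM and 9 of 12 in each of PGF, HM and HF. Thalamus markers were higher by medians of 1.1, 0.87 and 0.40 in PGM, PGF and HM and at -0.06 in HF. The Y-linked gene Ddx3y was at 2.52 RPKM in Control, 30.4 in PGM and 32.0 in PGF, 16.8 in HM and 15.9 in HF, and the labels give no sex. HM and HF were nearly level for Ddx3y. The 4 comparisons with Control share its samples, and in the group means the mix of sexes and of neighbouring tissue cannot be told apart from the group.

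Within the mitosis genes, the promoter matches were set beside the HM values. The 8 kept genes with TTTGAA had a median difference from Control of -0.29, and the 7 kept genes with a promoter but no such match had -0.37. The 3 with an E2F form, Mki67, Cdk1 and Ccnb1, were at -0.49, -0.46 and -0.37, and the 12 without had a median of -0.21. The median of the genes with TTTGAA was the less negative. Yet Mki67, Top2a and Cdk1, the mitosis genes farthest from Control in HM, all hold such a match. Whether the matches bear on the HM values was not tested. Among replication genes the 5 with an E2F form had a median of -0.14 and the 5 without had -0.31, while for HM minus HF the medians were -0.15 and -0.13, in the other order. These groups are small and were formed with the values known, so they are descriptions with no test.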

How the data were processed

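Total RNA of 15 hypothalamus samples was sequenced, 3 in each of 5 groups assigned from the sample titles. The authors deposited RPKM values averaged per group, per the file headers, for 49404 transcripts, rounded to 2 decimals; 1 repeated header line inside the table was left out. Reads were checked with FastQC and aligned with Novoalign 2.08 to mm10, per the submitters' processing notes. Not given in the sources used here were the depth, the counting program and its treatment of strand and shared reads. An average hides any sample that stands apart.

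Each of 24831 gene names took the median of its transcripts, and the 17481 whose group values averaged 1 RPKM or more were compared. Differences are of log2(mean RPKM + 0.5), which understates folds of low genes. Genes were counted at 1.5-fold and, since 0 of the 31 kept cell cycle genes reached it, at 0.32 on the log2 scale, the log2 of a smaller fold. With group means there is no test. Members, lists and alternatives were chosen with earlier results of these data known, and the count of genes lowest in HM and the background of 1 to 10 RPKM were added after seeing the data, as were ratios with no pseudocount and the shares over all transcripts. From 7 further cell cycle lists, the 3 kept genes farthest from Control in any group were named. Of the 11 tissue marker lists, the pituitary list is not set beside a result; its median difference from Control was 3.52 in PGF, -0.16 in PGM, -0.02 in HM and -1.21 in HF. Positions come from GENCODE M21 (GRCm38) by symbol, with 36 of 36 matched. Calculations were tested on simulated group means with little noise. No gene as low as most of the mitosis genes was lowered there, so calls at such levels were not checked. Python 3.11.15, numpy 2.4.6, pandas 2.3.3 and matplotlib 3.10.9 were used.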

Additional observations from a re-analysis of the deposited data

How the results depend on the processing

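Of 342 values under other settings, 322 lay within 0.1 of the main value on the log2 scale (or within 1.5 times for a count). Of these, 8 changed sign, all from main values of at most 0.036 in size: the replication medians of PGF and HF, the mitosis median of PGM against PGF, and Ccnd2 in PGF. The tolerance of 0.1 is larger than many main values. Within it, quantile normalization moved the HM against HF mitosis median from -0.208 to -0.112 and the replication median from -0.152 to -0.062. The all-gene median moved from -0.054 to 0.002, and 25 genes were lower in HM than in HF, where the authors' scaling gave 29. Group means leave no replicate to leave out. No paired analysis was possible because the deposited table holds 1 mean per group and no value per sample. With a mean of at least 3 RPKM, 17 of the 36 genes stayed, so counts had to fall. Genes lower at any size were 14 in HM against Control, 16 in HM against HF, 10 in HF, 13 in PGM and 13 in PGF against Control. HM was the lowest group for 7 of these 17, a smaller share than the 19 of 31 at 1 RPKM. The share over all genes at 3 RPKM was not counted. The PGM replication median reversed there to -0.045. With a pseudocount of 0.1, 1 gene (Cdk1) was past 1.5-fold in HM against Control and 3 (Mcm3, Mki67 and Cdk1) in HM against HF. With no pseudocount, chosen after seeing the data, these counts were 2 (Mki67 and Cdk1) and 3. Counting differences of 0.32 or more in either direction gave 13 genes in HM, 4 in PGM and 4 in PGF against Control, 7 in HM against HF and 1 in PGM against PGF. Upper quartile scaling, which moved the PGM against PGF median of all genes from 0.034 to -0.005, gave 17 genes lower in PGM than in PGF where the authors' scaling gave 11. Against HF in place of Control the HM mitosis median was -0.208, and under all settings it lay between -0.346 and -0.208. With the transcript of highest mean, Ccnd2 differed by -0.14 in PGF against Control and by -0.25 in PGM against PGF. Other causes of these shifts were not tested. The unknown depth limits the genes near 1 RPKM most.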
